A study of Mus musculus with 4 samples.

Results

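The interleukin 6 (IL-6) family cytokine genes Il6, Lif, Il11 and Clcf1, the colony-stimulating factor genes Csf1, Csf2 and Csf3, and the receptor genes Il6st, Lifr and Osmr were examined in Py8119 cells with and without overexpression of Mtss1. These 10 genes were taken by symbol from a table of 50600 genes, and each had 1 row. Py8119 is a mesenchymal-like mouse breast cancer line from mammary gland of the C57BL/6 strain, per the labels. The tested cells overexpressed Mtss1, which encodes a scaffold protein of the membrane and actin cytoskeleton. The control cells carry the genotype label control and the title hygro. Both were grown untreated in IMDM with 10% fetal bovine serum, and each was sequenced as 2 libraries from total RNA (overexpression 1 and 2, control 1 and 2). The vector, the promoter and whether each population is 1 clone are not stated in the labels. The labels do not tell whether libraries of 1 group are separate cultures, and p-values therefore reflect the scatter among 4 libraries, which could be purely technical.

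IL-6 family cytokines signal through gp130, the receptor chain that Il6st encodes and that the receptors of IL-6, IL-11, LIF, CLCF1 and oncostatin M share. IL-6 and IL-11 each bind a receptor chain of their own (Il6ra, Il11ra1) before they engage gp130. LIF and CLCF1 signal through gp130 paired with the LIF receptor, and oncostatin M in the mouse mainly through gp130 paired with the OSM receptor. Bound receptors activate JAK kinases and the transcription factor STAT3, and SOCS3 is induced as a brake. Colony-stimulating factors act on myeloid cells: CSF1 maintains macrophages, CSF2 acts on granulocytes and macrophages, and CSF3 drives the production of neutrophils. Tumour cells are a known source of these factors in mammary cancer.

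Promoter sequences are shown for 4 of the genes, because Il6 and Osmr were the members that rose, and Lif and Csf1 were the abundant ligands that fell and had a sequence to show. Each is the 250 bases before the annotated start from RefSeq (GRCm38.p6), read 5′ to 3′ in the direction of the gene. Capitals mark matches, on either strand, to the NF-kB motif, AP-1 (TGACTCA or TGAGTCA), C/EBP (TTNNGNAA), STAT (TTCNNNGAA), CRE or a TATA box (TATAAA).
Il6, chr5:30012864-30013113, plus strand: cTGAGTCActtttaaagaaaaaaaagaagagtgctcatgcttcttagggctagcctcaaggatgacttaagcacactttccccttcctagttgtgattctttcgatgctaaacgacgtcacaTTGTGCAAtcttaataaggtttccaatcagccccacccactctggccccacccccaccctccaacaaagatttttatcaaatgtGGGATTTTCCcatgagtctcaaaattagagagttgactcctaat
Osmr, chr15:6874314-6874563, minus strand: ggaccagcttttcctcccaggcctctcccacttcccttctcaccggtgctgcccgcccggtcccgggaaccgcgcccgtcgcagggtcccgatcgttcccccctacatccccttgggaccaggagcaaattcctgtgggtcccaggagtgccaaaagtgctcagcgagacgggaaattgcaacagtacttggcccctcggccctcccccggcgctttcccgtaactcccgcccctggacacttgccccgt
Lif, chr11:4257318-4257567, plus strand: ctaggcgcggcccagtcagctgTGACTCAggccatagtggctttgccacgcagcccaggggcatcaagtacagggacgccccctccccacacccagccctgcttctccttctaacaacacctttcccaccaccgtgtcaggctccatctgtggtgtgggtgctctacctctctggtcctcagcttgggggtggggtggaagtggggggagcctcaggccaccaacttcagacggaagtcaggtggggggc
Csf1, chr3:107760470-107760719, minus strand: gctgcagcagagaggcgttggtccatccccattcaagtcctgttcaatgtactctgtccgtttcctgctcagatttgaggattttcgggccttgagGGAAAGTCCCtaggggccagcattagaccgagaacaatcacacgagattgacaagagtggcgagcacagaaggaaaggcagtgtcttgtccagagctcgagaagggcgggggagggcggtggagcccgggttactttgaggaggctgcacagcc

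The Il6 window held an AP-1 match at 249 to 243 bases before the start, a C/EBP match at 128 to 121 and an NF-kB match at 44 to 35. The Lif window held 1 AP-1 match, at 228 to 222 bases. The Csf1 window held 1 NF-kB match, at 154 to 145 bases. No searched letters were found in the windows of Osmr, Il6st and Lifr. Of the 2 Il11 windows 1 had an AP-1 match. The Csf2 window held a C/EBP match at 145 to 138 bases, but its RefSeq start lies upstream of the GENCODE gene. For Osmr, Lifr and the Il11 window with the match the RefSeq start lies inside the GENCODE gene, and for Lif just inside it. Windows before other starts were not searched. Of 32851 windows of the same length over the genome, 3.9% held the NF-kB motif, 4.46% AP-1, 36.8% C/EBP, 7.02% STAT, 1.55% CRE and 12.4% the TATA letters. An NF-kB match thus stood before Il6, which rose with Mtss1 overexpression, and before Csf1, which fell. These are matches of letters, and no binding was measured.

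Values are in CPM, reads per 1000000 after the authors' scaling of each library. The labels were checked first on Mtss1 itself, which read 118 and 119 CPM in the overexpression libraries and 54.5 and 50.5 CPM in the control libraries (log2 fold change 1.16 ± 0.05 SE, limma adjusted p = 4.8e-15). Libraries held between 15594209 and 22081639 recovered reads, so 3 reads correspond to 0.138 to 0.189 CPM. Across genes, Pearson's r of log2(CPM + 1) was at least 0.997 within a group and at most 0.957 between groups, where genes are not independent replicates. All 8 mesenchymal markers examined were expressed, with Vim at 4197 and 4058 CPM in overexpression and 4010 and 4302 CPM in control. In the fit described below 2 of the 8 were higher, 4 lower and 2 not past the test. Over all tested genes 31.9% were higher and 34.2% lower. Of 8 epithelial markers Krt8 and Krt18 passed the filter, and both were lower with overexpression. Krt8 read 367 and 368 CPM in overexpression and 562 and 608 CPM in control. Krt18 read 234 and 235 CPM in overexpression and 286 and 285 CPM in control. The other 6, including Epcam at 0 in all 4 libraries, lay at or below 0.119 CPM.

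The cytokine genes mostly fell and the receptor gene Osmr rose. The fit on log2(CPM + 1) took in the 12510 genes that reached 1 CPM in 2 or more libraries, and a gene was called at an adjusted p under 0.05. Of the 10 genes 9 were tested. Lifr, at most 0.417 CPM, was not. With Mtss1 overexpression 5 genes were lower (Lif, Clcf1, Csf1, Csf2, Csf3), 2 were higher (Il6, Osmr) and 2 did not pass (Il11, Il6st). Over all tested genes 66.1% were called, 34.2% lower and 31.9% higher, so a count of 7 of 9 is near that background. Csf2 passed the filter through the control libraries in which it was high. With 1 CPM required in all 4 libraries it was not tested, and of 8 tested genes 4 were lower and 2 higher. Overexpression and control libraries were apart for 8 of the 9, and for 81.6% of all tested genes. In these bulk libraries fewer cells that express a gene and less RNA per cell cannot be told apart.

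**Figure D1:**
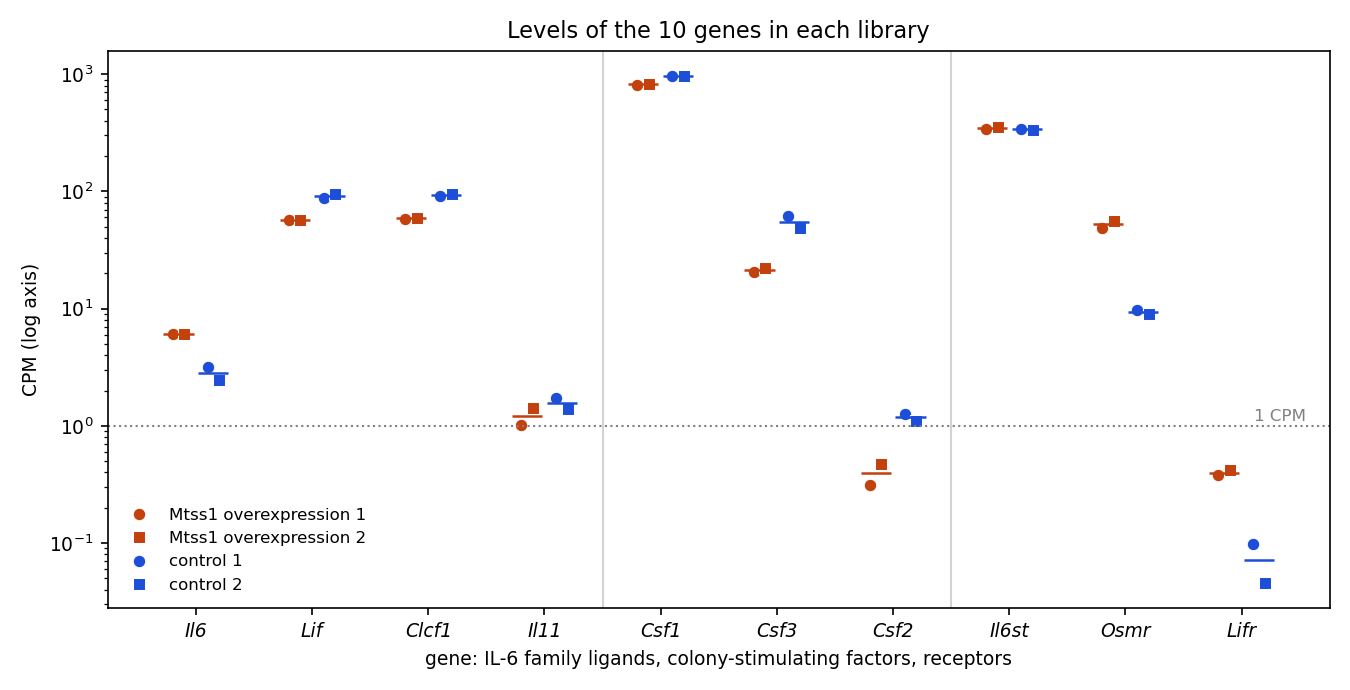
CPM of each gene (log axis) in the 4 libraries, with Mtss1 overexpression in orange and control in blue, circles for library 1 and squares for library 2, and lines at the group means. Osmr, Il6 and Lifr were higher in both overexpression libraries. Lif, Clcf1, Csf1, Csf3 and Csf2 were lower in both, and Il11 overlapped.

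Il6 encodes the founding cytokine of the family. The gene (ENSMUSG00000025746) lies on chromosome 5 from 30013114 to 30019981 (mm10, as for all positions below). It read 6.11 and 6.07 CPM in overexpression 1 and 2, against 3.18 and 2.44 CPM in control 1 and 2, from 97 and 102 reads against 65 and 53. Both overexpression libraries lay above both controls. The mean was 6.09 ± 0.0307 CPM with overexpression and 2.81 ± 0.527 CPM in control (SD, n = 2), a ratio of 2.17. The log2 fold change was 0.90 ± 0.16 (SE, limma adjusted p = 2.6e-05), and 5.29% of tested genes had a higher one. With a pseudocount of 5 in place of 1 it was 0.51, since the pseudocount is of the size of the value itself.

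Lif and Clcf1, whose products both act through gp130 and the LIF receptor, both fell, to similar shares of their control levels. LIF keeps mouse embryonic stem cells undifferentiated, and CLCF1 (cardiotrophin-like cytokine factor 1) is a neurotrophic and B-cell-stimulating cytokine. Lif (ENSMUSG00000034394, chromosome 11, 4257557 to 4272514) read 56.9 and 57.1 CPM in overexpression and 88.7 and 94.5 CPM in control, without overlap. Its log2 fold change was -0.67 ± 0.05 (SE, limma adjusted p = 1e-10). Clcf1 (ENSMUSG00000040663, chromosome 19, 4214238 to 4223490) read 58.7 and 59.0 CPM in overexpression and 91.2 and 94.5 CPM in control, also without overlap. Its log2 fold change was -0.65 ± 0.05 (SE, limma adjusted p = 1.1e-10). Both genes thus stood at 62.2% and 63.4% of their control means. Within a library Lif and Clcf1 had nearly equal CPM: the ratio of Lif to Clcf1 was 0.969 and 0.968 in overexpression and 0.972 and 1 in control. The annotation places a second protein-coding gene, AC109138.7, over Clcf1 on the same strand. It has no row in the table used here, so reads from it may be counted under Clcf1.

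Il11, a cytokine known for roles in platelet production and fibrosis, was near the detection filter. The gene (ENSMUSG00000004371, chromosome 7, 4772373 to 4782859) read 1.01 and 1.43 CPM in overexpression and 1.71 and 1.38 CPM in control, and the groups overlapped. The log2 fold change of -0.20 had a 95% interval of -0.60 to 0.20 and did not pass (limma adjusted p = 0.36). Summed over libraries there were 40 reads against 65, a ratio of 0.794 after scaling with an exact 95% counting interval of 0.522 to 1.2. That interval spans both a fall and a rise, so these reads did not settle a direction. Counting intervals here cover counting error only.

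The macrophage factor gene Csf1 was by far the most abundant member and fell to 85% of its control mean. It lies on chromosome 3 from 107741048 to 107760469 (ENSMUSG00000014599). It read 806 and 833 CPM in overexpression, against 964 CPM in each control library. The groups did not overlap, and the mean was 819 ± 18.9 CPM with overexpression and 964 ± 0.158 CPM in control (SD, n = 2). The log2 fold change was -0.23 ± 0.03 (SE, limma adjusted p = 1.6e-06). A larger fall was seen in 29.5% of all tested genes. Csf1 made up 84.9% and 85.1% of the summed CPM of the 7 ligand genes in overexpression and 79.6% and 79.9% in control.

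Csf3, which encodes the neutrophil growth factor G-CSF, fell to well under its control level. It (ENSMUSG00000038067, chromosome 11, 98701263 to 98703629) read 20.7 and 22.0 CPM in overexpression and 61.5 and 48.7 CPM in control. The controls differed from each other but both stood well above the overexpression libraries. The mean was 21.4 ± 0.908 CPM with overexpression and 55.1 ± 9.04 CPM in control (SD, n = 2), or 38.8% of control. The log2 fold change was -1.32 ± 0.09 (SE, limma adjusted p = 6.4e-12), and 1.81% of tested genes had a lower one. Relative to the CPM of Csf1 in the same library, that of Csf3 stood at 2.57% and 2.64% in overexpression and at 6.38% and 5.05% in control. Per kilobase of merged exons it stood at 9.62% and 9.88% in overexpression and at 23.8% and 18.9% in control.

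Csf2, which encodes GM-CSF, was rare in both groups. It (ENSMUSG00000018916, chromosome 11, 54247271 to 54249667) read 0.315 and 0.476 CPM in overexpression, from 5 and 8 reads, and 1.27 and 1.1 CPM in control, from 26 and 24 reads. The groups did not overlap. Csf2 passed the filter through its 2 control libraries, so its call adds nothing to these values. The summed reads gave a ratio of 0.335 with an exact 95% counting interval of 0.167 to 0.627. The fitted log2 fold change of -0.65 ± 0.20 (SE, limma adjusted p = 0.0073) understates that ratio because of the pseudocount, and limma-voom on the recovered reads gave -1.52. Without overexpression 1 the call was lost (limma adjusted p = 0.061). Without either control library, or with 1 CPM required in all libraries, the gene was not tested. An antisense gene, Gm12223, overlaps Csf2 and read at most 0.098 CPM.

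**Figure D2:**
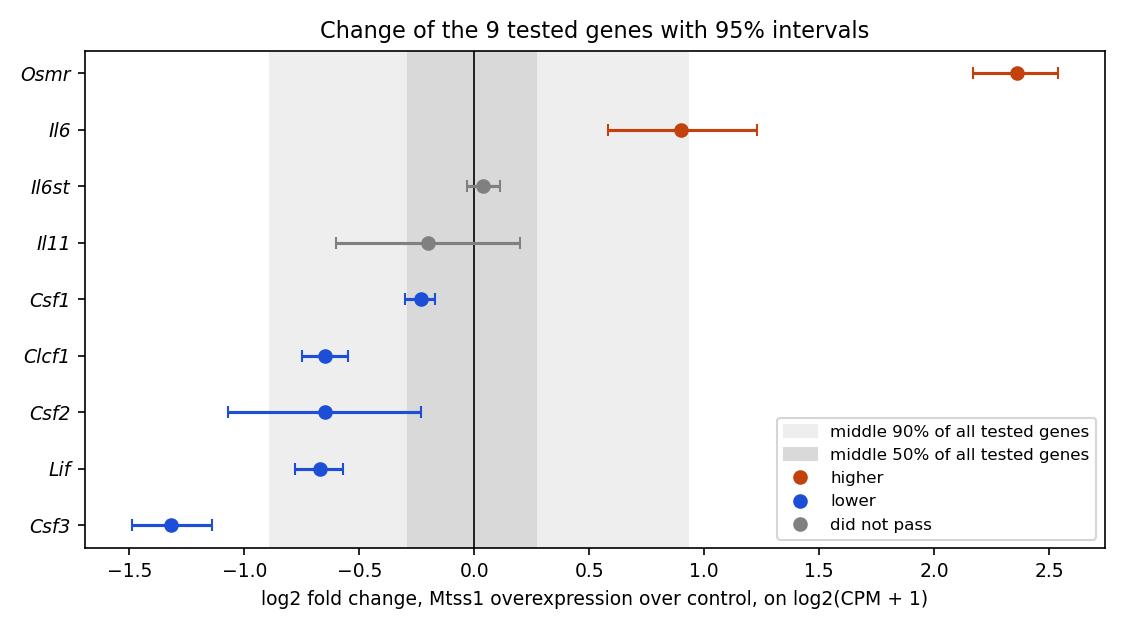
Log2 fold change on log2(CPM + 1), Mtss1 overexpression over control, with limma's 95% intervals, for the 9 genes tested. Shaded bands hold the middle 50% (-0.29 to 0.27) and 90% (-0.89 to 0.93) of the 12510 genes; Osmr (2.36) and Csf3 (-1.32) lie outside the wider band.

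On the receptor side, Osmr rose, to 5.57 times its control mean, and Il6st, for the shared chain gp130, did not pass the test. Osmr encodes the chain that gives mouse gp130 complexes their specificity for oncostatin M. The gene (ENSMUSG00000022146, chromosome 15, 6813577 to 6874969) read 49.2 and 55.6 CPM in overexpression and 9.75 and 9.07 CPM in control, from 781 and 934 reads against 199 and 197. Each overexpression library stood far above both controls. The mean was 52.4 ± 4.5 CPM with overexpression and 9.41 ± 0.482 CPM in control (SD, n = 2), a ratio of 5.57. The log2 fold change was 2.36 ± 0.09 (SE, limma adjusted p = 3.4e-16), the 98th highest of 12510. Leaving out a library in turn, rescaling and the other alternatives gave 1.99 to 2.48.

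Il6st (ENSMUSG00000021756, chromosome 13, 112464070 to 112510086) read 343 and 352 CPM in overexpression and 340 and 337 CPM in control. The overexpression libraries lay just above the controls, as was so for 39.7% of all tested genes. The log2 fold change of 0.04 had a 95% interval of -0.03 to 0.11 and did not pass (limma adjusted p = 0.34). Lifr, the LIF receptor gene (ENSMUSG00000054263, chromosome 15, 7090614 to 7197489), was barely detected. It had 6 and 7 reads in overexpression (0.378 and 0.417 CPM) and 2 and 1 reads in control (0.098 and 0.046 CPM). The summed 13 and 3 reads gave a ratio of 5.59 with an exact 95% counting interval of 1.54 to 30.6. With no filter its log2 fold change was 0.38 ± 0.08 (SE, limma adjusted p = 0.011), a value the pseudocount holds down. Lif and Clcf1 RNA was thus abundant where Lifr had few reads in either group.

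The receptor mix changed within each library, a comparison that does not depend on how libraries were scaled. Osmr stood at 14.3% and 15.8% of the Il6st CPM in overexpression and at 2.87% and 2.69% in control. Il6ra, the chain that binds IL-6 and a gene outside the 10, went the other way. It stood at 4.68% and 4.41% of Il6st in overexpression and at 12.3% and 14.1% in control. The ratio of Osmr to Il6ra was 3.06 and 3.58 in overexpression and 0.233 and 0.19 in control. Among the ligands, Il6 stood at 10.7% and 10.6% of the Lif CPM in overexpression and at 3.59% and 2.58% in control. Per kilobase of merged exons it stood at 19.2% and 19.1% in overexpression and at 6.43% and 4.63% in control. The other ratios here are likewise of CPM, without scaling for gene length. With 2 libraries against 2 an exact permutation test cannot give a p below 0.333, so these ratios were not tested.

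**Figure D3:**
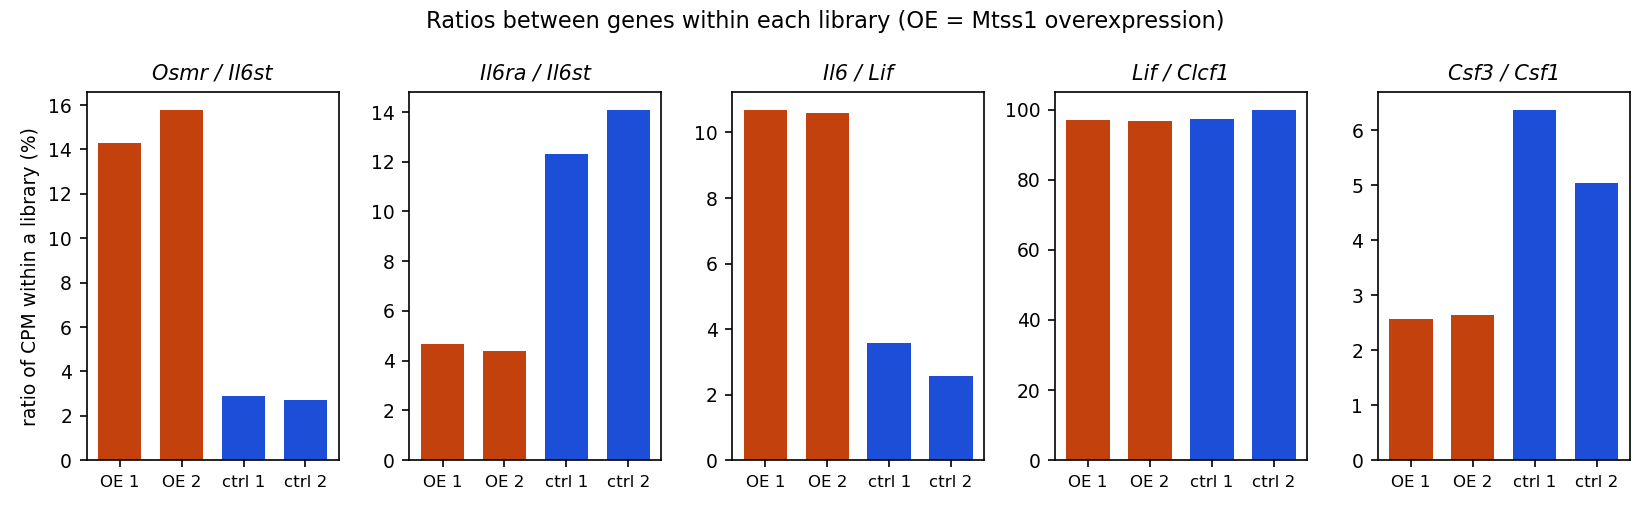
Ratio of the CPM of the gene named first to that of the gene named second within each library, in percent, with Mtss1 overexpression (OE) in orange and control (ctrl) in blue. Osmr to Il6st was 14.3% and 15.8% in overexpression and 2.87% and 2.69% in control, Il6ra to Il6st moved the opposite way, and Lif to Clcf1 stayed between 96.8% and 100%.

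Levels of different genes were compared per kilobase of merged annotated exons. In overexpression Csf1 was highest at a mean of 155 CPM per kilobase, followed by Il6st at 31.3, Clcf1 at 15.5, Csf3 at 15.1, Lif at 13.1, Osmr at 4.33, Il6 at 2.51, Il11 at 0.585, Csf2 at 0.495 and Lifr at 0.0369 CPM per kilobase. In control the order was Csf1 at 183 CPM per kilobase, Csf3 at 39.0, Il6st at 30.5, Clcf1 at 24.4, Lif at 21.1, Csf2 at 1.49, Il6 at 1.16, Osmr at 0.777, Il11 at 0.744 and Lifr at 0.00668. Neighbours whose libraries overlapped were Clcf1 and Csf3, and Il11 and Csf2, in overexpression, and Osmr and Il11 in control. Csf3 ranked above Il6st in both control libraries and below it in both overexpression libraries. Osmr ranked below Il6 in both control libraries and above it in both overexpression libraries.

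The further IL-6 family genes listed here were scarce, apart from the receptor genes Il6ra and Il11ra1. Of 12 further ligand and receptor genes 3 passed the filter (Il6ra, Il11ra1 and Cntf). Il6ra read 16.1 and 15.5 CPM in overexpression and 41.9 and 47.7 CPM in control, and it fell (log2 fold change -1.45 ± 0.08 SE, limma adjusted p = 6.1e-13). Il11ra1, the IL-11 receptor chain, read 22.4 and 20.3 CPM in overexpression and 26.4 and 24.9 CPM in control. Its fall (-0.26 ± 0.09 SE, limma adjusted p = 0.012) was lost without control 1 (adjusted p = 0.086) and without overexpression 2 (adjusted p = 0.1). Cntf did not pass (0.07 ± 0.20 SE, limma adjusted p = 0.78). Oncostatin M itself (Osm) was at 0 in all 4 libraries, where 3 reads would have been 0.138 to 0.189 CPM, so Osm was not detectable at this depth in the cells in which Osmr rose. Il27 and Il31 were also at 0. Ctf1, cardiotrophin 1, read 0.567 and 1.25 CPM in overexpression and 0.147 and 0.138 CPM in control. Ctf2, Ebi3, Cntfr, Il27ra and Il31ra were at most 0.357 CPM.

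Receptor genes for the colony-stimulating factors were scarce. The G-CSF receptor gene Csf3r and the GM-CSF receptor gene Csf2ra were at 0 in all 4 libraries, and the CSF1 receptor gene Csf1r was at most 0.375 CPM. Csf2rb, the signalling chain of the GM-CSF receptor, read 0.504 and 0.238 CPM in overexpression and 1.08 and 1.74 CPM in control. It fell (log2 fold change -0.81 ± 0.21 SE, limma adjusted p = 0.002), but passed the filter through its control libraries. Without either control library it was not tested. Il34, the other ligand of the CSF1 receptor, read 56.5 and 56.7 CPM in overexpression and 56.5 and 58.9 CPM in control and did not pass (-0.03 ± 0.05 SE, limma adjusted p = 0.67). Of 12 myeloid and lymphoid markers 3 passed the filter. Their summed level was 103 to 105 CPM in overexpression and 29.4 to 31.2 CPM in control, most of it from Cd68 (91.9 and 92.4 CPM against 19.8 and 17.4 CPM). Lyz2 read 4.1 and 3.51 CPM in overexpression and 2.2 and 3.36 CPM in control, and Cd14 read 5.92 and 8.75 CPM in overexpression and 8.87 and 8.15 CPM in control. Neither passed the test (limma adjusted p = 0.075 for Lyz2 and 0.22 for Cd14). The other 9 markers were at most 0.375 CPM. The leukocyte marker Ptprc was at most 0.098 CPM, the macrophage marker Adgre1 at most 0.063 CPM, and Itgam and Cd3e were at 0. Of 6 endothelial markers only Vwf passed the filter. They summed to 1.64 to 2.08 CPM in overexpression and 1.66 to 1.71 CPM in control.

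The counts in the lists below stand beside 66.1% of all tested genes called, 31.9% higher and 34.2% lower, and no list was tested against those shares. Among 17 tested JAK, STAT and SHP2 pathway genes, which carry the signal below gp130, there were 4 higher, 5 lower and 8 not past the test, with a median log2 fold change of 0.01 beside -0.01 over all tested genes. Stat3, the main transcription factor of the pathway, read 182 and 189 CPM in overexpression and 182 and 183 CPM in control and did not pass (0.02 ± 0.04 SE, limma adjusted p = 0.68). Jak1, a kinase bound to gp130, did not pass either (0.04 ± 0.04 SE, adjusted p = 0.39). Jak2 rose to 88.7 and 85.4 CPM in overexpression, against 59.4 and 57.4 CPM in control (0.57 ± 0.05 SE, limma adjusted p = 1.6e-09). The adaptor gene Gab2 rose by 0.74 ± 0.07 SE. Stat5a, a signal transducer of the GM-CSF receptor, fell to 19.0 and 21.4 CPM, against 37.6 and 39.4 CPM in control (-0.90 ± 0.08 SE, limma adjusted p = 1.4e-09). Stat6, which serves the interleukin 4 receptor, fell to 67.0 and 70.8 CPM, against 142 and 147 CPM in control.

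Of 15 tested genes that restrain gp130 signalling 8 were higher, 2 lower and 5 not past the test (median 0.18), beside 31.9% higher and 34.2% lower over all tested genes. Socs3, the feedback inhibitor that binds gp130, rose to 83.8 and 82.7 CPM in overexpression, against 58.8 and 57.5 CPM in control (0.51 ± 0.05 SE, limma adjusted p = 7.7e-09). Pias3, an inhibitor of STAT3, rose to 52.3 and 51.4 CPM, against 28.5 and 27.8 CPM in control (0.86 ± 0.06 SE, limma adjusted p = 1e-10). Socs1, which inhibits JAK kinases directly, fell to 4.85 and 4.46 CPM, against 11.3 and 9.8 CPM in control (-1.03 ± 0.13 SE, limma adjusted p = 5.9e-07). The phosphatase gene Ptpn6 fell as well, by 0.93 ± 0.13 SE.

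Of 29 tested genes known to respond to STAT3 10 were higher, 13 lower and 6 not past the test (median 0.02), beside 31.9% higher and 34.2% lower over all tested genes. This list holds Osmr and Il6st themselves. Besides Osmr, Jak2 and Socs3, the survival gene Mcl1 (0.39 ± 0.04 SE) and the iron-binding lipocalin gene Lcn2 (0.37 ± 0.05 SE) were among those that rose. Lcn2 read 595 and 652 CPM in overexpression and 509 and 453 CPM in control. Among those that fell were Klf4 (-1.39 ± 0.06 SE), a pluripotency transcription factor, the kinase gene Pim2 (-1.36 ± 0.09 SE) and the growth factor gene Vegfa (-0.98 ± 0.06 SE). Junb (-0.56 ± 0.04 SE) and Cebpd (-0.50 ± 0.05 SE), which encode transcription factors, fell as well. Hp (haptoglobin) also fell, to 0.378 and 0.357 CPM, against 1.91 and 1.84 CPM in control, and passed the filter through its control libraries, without either of which it was not tested.

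**Figure D4:**
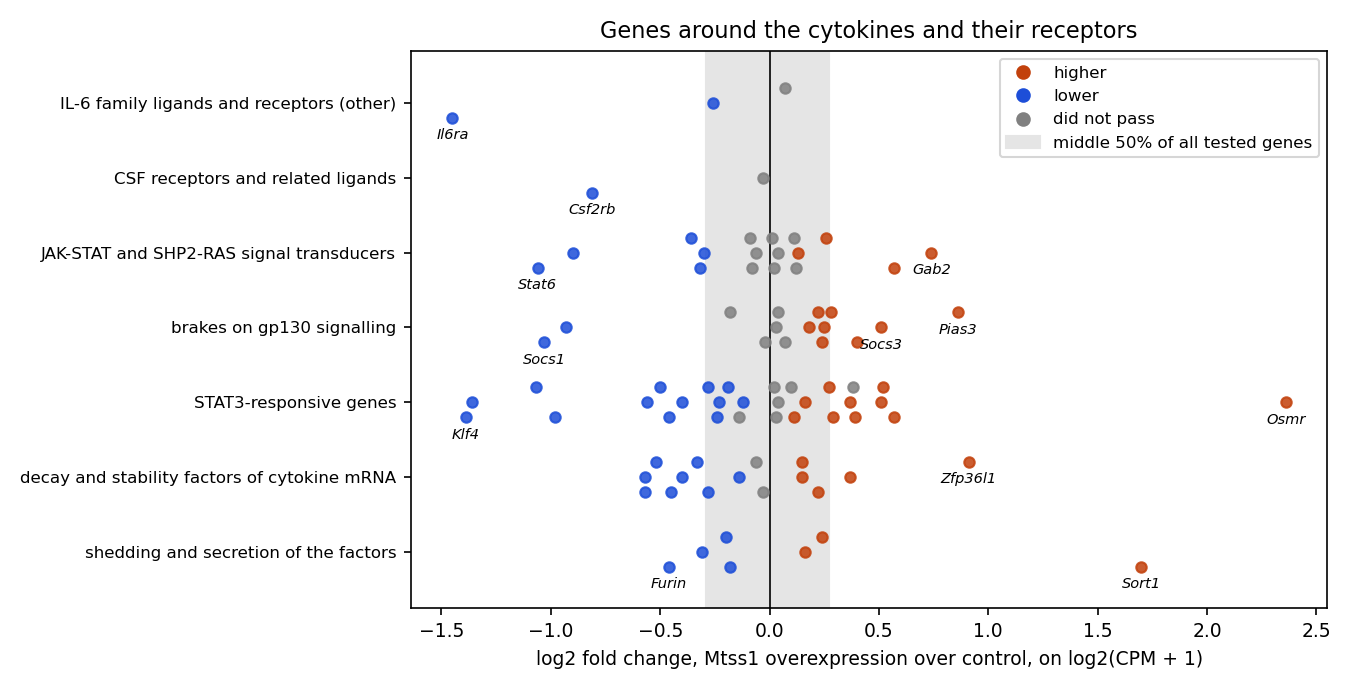
Log2 fold change on log2(CPM + 1), Mtss1 overexpression over control, of the tested genes of 7 lists, 1 point per gene, spread vertically for legibility. Orange points rose, blue points fell and grey points did not pass; the band holds the middle 50% of all tested genes (-0.29 to 0.27), and Osmr at 2.36 stands farthest to the right.

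Several members carry AU-rich 3′ ends, a feature that marks short-lived mRNAs. The pentamer ATTTA was counted in the 3′ untranslated region of 1 transcript per gene in the mm10 annotation. Csf2 had 9 copies in 317 bases, or 28.4 per kilobase, Il6 had 14.1, Csf3 8.97 and Il11 8.38 per kilobase, beside a median of 1.33 over 11208 tested genes. Clcf1 had 4.34, Osmr 2.23, Lif 2.2, Csf1 1.89, Lifr 1.74 and Il6st 1.6 per kilobase. The heptamer TATTTAT was present in all 7 ligands and in none of the 3 receptors. Among tested genes of like length, within 1.5 times, it was found in 10.6% to 52.3% for the ligands and 38.0% to 69.8% for the receptors. Among the ligands with dense pentamers, Il6 rose, Csf3 fell and Il11 did not pass. Csf2 also read lower, but passed the filter through its control libraries. Whether the pentamers bear on these changes was not tested.

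Of 15 factors that control the decay or stability of cytokine mRNA, all tested, 5 were higher, 8 lower and 2 not past the test (median -0.14), beside 31.9% higher and 34.2% lower over all tested genes. Zfp36l1, an AU-rich element binding protein that promotes decay, rose to 116 and 112 CPM in overexpression, against 61.1 and 59.8 CPM in control (0.91 ± 0.05 SE, limma adjusted p = 1.6e-13). Its relative Zfp36 (tristetraprolin) rose by 0.37 ± 0.07 SE, while Zfp36l2 fell by 0.28 ± 0.03 SE. Zc3h12a, which encodes the nuclease Regnase-1 that cleaves Il6 mRNA, fell to 21.1 and 19.5 CPM, against 29.5 and 31.6 CPM in control (-0.57 ± 0.08 SE, limma adjusted p = 2.5e-06). Rc3h1 (Roquin-1), which also destabilises such mRNAs, fell by 0.40 ± 0.05 SE. Arid5a, a protein that stabilises Il6 mRNA, fell by 0.45 ± 0.06 SE, and Hnrnpd (AUF1) by 0.57 ± 0.05 SE.

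Of 7 tested genes for the shedding and secretion of these factors 3 were higher and 4 lower, with a median of -0.18, beside 31.9% higher and 34.2% lower over all tested genes. Sort1 encodes sortilin, a sorting receptor of the secretory pathway, and rose to 4.35 and 5.65 CPM in overexpression, against 0.686 and 1.01 CPM in control (1.70 ± 0.18 SE, limma adjusted p = 2.7e-08). Sort1 passed the filter through the overexpression libraries in which it was high, so its call adds nothing to these values. With 1 CPM required in all 4 libraries it was not tested, and of 6 tested genes 2 were higher and 4 lower. Adam17 and Adam10, proteases that can shed membrane receptors and ligands such as the IL-6 receptor and CSF1, fell by 0.20 ± 0.04 and 0.31 ± 0.04 SE. The proprotein convertase gene Furin fell by 0.46 ± 0.04 SE. Besides Sort1, the genes called higher were Rhbdf1 and Rhbdf2, by 0.24 ± 0.05 and 0.16 ± 0.06 SE.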

How the data were processed

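The deposited table gives CPM, an assignment made from the values: the submitters' processing notes name mm10, RSEM, STAR and FastQC 0.11.2 without their roles. The authors' scaling of the libraries is not given in the sources consulted. The CPM of 1 read was taken as the most frequent nonzero value of each library. After division by it, 79.6% to 80.5% of nonzero values were whole within 0.005 read, so the recovered reads are estimated counts.

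Libraries were grouped by their titles, 2 per group. Limma 3.58.1 in R 4.3.3 (lmFit, eBayes with a mean-dependent prior) was fitted to log2(CPM + 1) of the 12510 genes that reached 1 CPM in 2 or more libraries, with Benjamini-Hochberg adjustment over all of them, a threshold of 0.05, 2 residual degrees of freedom and a prior of 20. Fold changes on this scale understate those of low genes. The steps were tested on simulated data. Libraries of a group differed by 1.77 and 2.03 times the sampling noise (median chi-square) and were kept as replicates. Coordinates, exon lengths and 3′ ends come from GENCODE M21 (mm10), which matched 50376 of 50600 identifiers. Promoters, from RefSeq, matched 8 of the 10 genes.

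The 10 genes and the lists were chosen with earlier results of these data known. All 10 are named. The list of further IL-6 family genes was shortened by 1 gene, which is not reported here, so its counts do not cover that gene. From lists of up to 20 genes any member may be named, and from longer ones up to 6 in each direction with the largest changes past the threshold. Lists with fewer than 5 tested genes are described gene by gene. The alternatives were median-of-ratios and library-size scaling, no filter, 1 CPM in all libraries, pseudocounts of 0.1 and 5, limma-voom, the replicate number as a block, a threshold of 0.01 on the adjusted p, and each library left out once.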

Additional observations from a re-analysis of the deposited data

How the results depend on the processing

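Lif, Clcf1, Csf1, Csf3, Il6 and Osmr kept their direction and their call, and Il11 and Il6st did not pass, under all 13 alternatives. Il6 ranged from 0.51 to 1.13 in log2 fold change, Csf3 from -1.48 to -1.15 and Il6st from 0.02 to 0.08. The 0.08 of Il6st came with library-size scaling, where it lay at the threshold after rounding (limma adjusted p = 0.05). Csf2 could be fitted under 10 alternatives and ranged from -1.52 to -0.20. With 1 overexpression library left out it was -0.73 to -0.57, and its call was lost without overexpression 1. Lifr was tested only with no filter, at 0.38, where 3 of the 10 genes were higher. Without a filter, 2 JAK, STAT and SHP2 pathway genes were higher in place of 4; more genes were then tested. Over all genes 3317 to 4362 were higher and 3621 to 4337 lower, and library-size scaling turned the balance to 4362 higher and 3888 lower, as did leaving out control 2, with 3634 higher and 3621 lower. With an arm of 1 library, that library is assumed to vary like the other group. With the replicate number as a block, 4040 genes were higher and 4337 lower, and the same 2 and 5 counts of members were found. Deviations of same-numbered libraries correlated at -0.0241, so the numbers give no sign of pairing. Depth limits Lifr, Csf2 and Il11, which rest on 1 to 35 reads per library.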

Other observations

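The positions of the genes add some context to their values. Osmr and Lifr are neighbours on chromosome 15 (mm10), 216 kilobases apart with no protein-coding gene between them, Osmr from 6813577 to 6874969 on the minus strand and Lifr from 7090614 to 7197489 on the plus strand. Osmr reached 49.2 and 55.6 CPM in overexpression and 9.75 and 9.07 CPM in control. Lifr was at a far lower level, at or below 0.417 CPM in all 4 libraries. It also read higher in overexpression, from 13 summed reads against 3. Lif lies 16.5 kilobases from Osm on chromosome 11. Lif read between 56.9 and 94.5 CPM and Osm 0 in the same libraries. Csf2 lies 15.6 kilobases from Il3, which was also at 0. Il6st lies 9.81 kilobases from Il31ra, another receptor gene of the family, which reached 0.063 CPM.

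The summed CPM of the 7 ligand genes was 950 and 979 in overexpression and 1211 and 1207 in control. Without Csf1 the remaining 6 summed to 144 and 146 CPM in overexpression and 248 and 243 CPM in control. No group had enough libraries for the check for single outlying samples.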
